A study of Mus musculus with 14 samples.

Results

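The 10 genes *Acan*, *Vcan*, *Matn1*, *Matn2*, *Matn3*, *Matn4*, *Hapln1*, *Hapln3*, *Comp* and *Cnmd* encode non-collagen components of cartilage matrix, and were taken by name from the 24454 genes of a table of reads per gene. They were followed through 14 RNA-seq libraries of mouse forelimb bud cells. The aim was to describe where they appear in an assumed order of populations, from early limb bud mesenchymal progenitors (LMPs) to chondroblasts (CBs). All 10 were among the 15125 genes with enough reads to be tested. The cells came from embryos that carry an EGFP reporter in the *Sox9* locus, and were sorted by flow cytometry after exclusion of dead, endothelial, blood and epithelial cells. S9-JAG1+ LMPs have no EGFP and carry the Notch ligand JAG1 on their surface, S9-Pαhi LMPs have no EGFP and high surface PDGFRα, and S9+Pαhi osteo-chondrogenic progenitors (OCPs) have both EGFP and high PDGFRα. These populations, with 3 libraries each, were isolated at E10.5, as were S9-SCA-1+ cells, which are negative for EGFP and JAG1 and have 2 libraries. CBs, with 3 libraries, were isolated at E11.5 and named for *Col2a1* expression. The gate that the sample labels give for CBs is that of the OCPs, so that population and stage cannot be told apart at the step from OCPs to CBs. All populations share the reporter allele, and each library was made from the pooled forelimb buds of many embryos.

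Cartilage matrix is a hydrated gel. Its bulk comes from aggregates in which lectican proteoglycans, such as aggrecan (*Acan*) and versican (*Vcan*), bind to hyaluronan chains and are locked in place by link proteins of the HAPLN family. Matrilins and cartilage oligomeric matrix protein (*Comp*) connect these aggregates to collagen fibrils, and chondromodulin (*Cnmd*, formerly *Lect1*) is a membrane protein of avascular cartilage that inhibits vessel growth. Versican belongs to the provisional matrix of mesenchyme and early condensations, and aggrecan to differentiated cartilage.

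The libraries held 20316583 to 29162751 reads in genes (median 25554498). Levels are given as CPM, read counts relative to the scaled size of the library, and 3 reads or fewer were taken as not distinguishable from absence, which covers counting error only. Differences were tested with the quasi-likelihood method of edgeR, p-values were adjusted over all tested genes, and a call required both an adjusted p no higher than 0.1 and a log2 fold change of 1.2 or more in either direction. These p-values measure the spread between the libraries of a population, since the labels do not say how independent the cell pools were. The gate gene *Sox9* rose from 62.3 ± 4.50 CPM in S9-Pαhi LMPs to 437 ± 7.03 CPM in OCPs, and *Col2a1* from 89.8 ± 26.8 to 989.5 ± 271 CPM (mean ± SD, n = 3 each). The summed level of 4 neural crest and glia markers lay between 3.90 and 6.43 CPM in both LMP populations, between 9.41 and 20.9 CPM in OCPs and between 20.9 and 29.2 CPM in CBs. The defining gene *Sox10* had at most 3 reads in every LMP library and 46 to 88 reads in OCP and CB libraries. The summed level of 4 tendon markers was 32.2 to 64.6 CPM in the LMPs and 119 to 146 CPM in OCPs and CBs. Both sums moved with the rising genes described below, and their part in them was not tested. Of the 3 OCP libraries, replicate 1 was the lowest for 6 of the 10 genes and replicate 2 the highest for 7. Over all genes, replicate 2 differed most. The chi-square per degree of freedom was 76.3 between replicates 1 and 2, 40.0 between 2 and 3, and 20.3 between 1 and 3. Among CB libraries, replicate 1 was the lowest for 8 of the 10 genes and replicate 3 the highest for 9. In these sorted cell pools, fewer expressing cells and less RNA per cell cannot be told apart.

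The genes fell in 3 groups by the first population in which they were called above S9-JAG1+ LMPs. These groups depend on the limits for a call and on read depth. OCPs held 81.7% of the mean CB level of *Vcan* and 3.90% of that of *Matn1*, against 3.99% for *Matn4*. *Cnmd* and *Matn4* were first called above S9-JAG1+ LMPs in OCPs. *Vcan*, *Matn1*, *Acan* and *Comp* were first called above S9-JAG1+ LMPs in CBs. *Matn2* and *Matn3* were called in neither, and the link protein genes *Hapln1* and *Hapln3* were called lower in CBs. In CBs against S9-JAG1+ LMPs, 6 of the 10 genes were therefore called higher, where 15.2% of all tested genes were, and 2 of the 10 lower, where 4.17% of all tested genes were. The median log2 fold change was 1.99 over the 10 genes and 0.05 over all tested genes. The comparisons described here share libraries, since each population enters several of them.

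**Figure D1:**
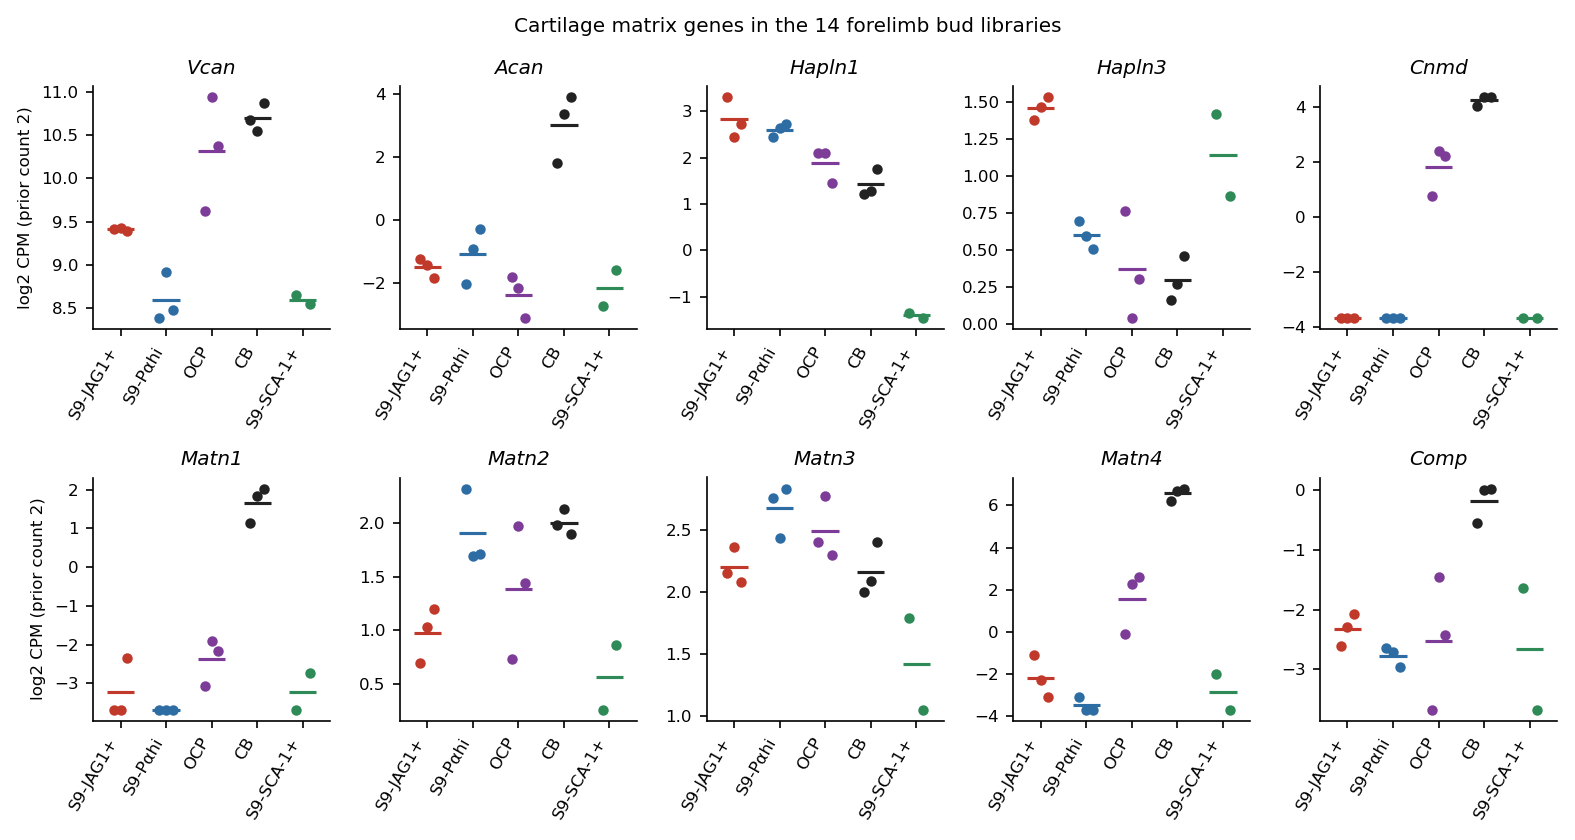
Level of each of the 10 genes as log2 CPM (prior count 2) in every library, by population, each panel with its own vertical axis. Points are libraries and horizontal lines are population means. *Cnmd* starts at the floor of the scale, where a library has no read, *Vcan* starts at 9.41 log2 CPM, and *Hapln1* and *Hapln3* run downwards from S9-JAG1+ LMPs to CBs.

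*Vcan* had the highest level of these genes in all populations, also per length. It had 672, 682 and 687 CPM in the libraries of S9-JAG1+ LMPs, and 333, 354 and 482 CPM in those of S9-Pαhi LMPs, so that all 3 of the latter were lower (log2 fold change -0.80, standard error 0.24, adjusted p = 0.0256, under the limit for a call). In OCPs it reached 787, 1331 and 1970 CPM, all above both LMP populations. The increase from S9-Pαhi LMPs to OCPs was 1.81 on the log2 scale (standard error 0.24, adjusted p = 0.000228), and 2.08 without replicate 1 of the OCPs. In CBs it had 1494, 1634 and 1878 CPM, a range that overlaps with the OCPs (0.29, standard error 0.23, adjusted p = 0.384). The mean of the OCPs was 81.7% of the mean of the CBs. By CPM, *Vcan* was gene number 131 in the order of all genes in S9-JAG1+ LMPs, number 378 in S9-Pαhi LMPs, number 25 in OCPs and number 14 in CBs. Against S9-JAG1+ LMPs, *Vcan* was 1.00 higher in OCPs on the log2 scale (standard error 0.24, adjusted p = 0.00397), and it was called in CBs only (1.29, standard error 0.24, adjusted p = 0.000344). Without replicate 1 of the OCPs, the former became 1.28 and was called as well, and without replicate 3 of the CBs the latter became 1.16 and was not called.

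*Cnmd* had no read in any of the 8 libraries sorted without EGFP. It had 40, 111 and 129 reads in OCPs and 490, 527 and 602 reads in CBs. The populations did not overlap, and the appearance of *Cnmd* coincided with the S9+ gate. With the floor of 3 reads in each library without reads, its level was at least 30.1-fold higher in OCPs than in S9-Pαhi LMPs (adjusted p = 0.000336), at least 31.0-fold higher than in S9-JAG1+ LMPs (adjusted p = 6.71e-05) and at least 155-fold higher in CBs than in S9-JAG1+ LMPs (adjusted p = 2.47e-06). From OCPs to CBs it rose from 3.86 ± 1.96 to 19.3 ± 2.41 CPM (SD, n = 3 each), or by 2.32 on the log2 scale (standard error 0.36, adjusted p = 0.00173). Without replicate 1 of the OCPs this was 1.95. OCPs thus held 20.02% of the CB level.

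*Matn4* encodes a matrilin, one of the adaptor proteins that link matrix components to each other. It had 1, 3 and 9 reads in S9-JAG1+ LMPs and 0, 0 and 1 reads in S9-Pαhi LMPs. In OCPs it had 21, 99 and 165 reads, and in CBs 2175, 2837 and 3046 reads. The summed reads of OCPs and S9-Pαhi LMPs, per scaled library size, gave a ratio of 277, with an exact 95% counting interval from 49.3 to 10976, as it rests on 1 read in S9-Pαhi LMPs (adjusted p = 0.000551). Against S9-JAG1+ LMPs the log2 fold change was 4.39 in OCPs (standard error 0.76, adjusted p = 0.000388) and 9.03 in CBs (standard error 0.64, adjusted p = 6.58e-08). The step from OCPs to CBs was 4.64 (standard error 0.44, adjusted p = 7.59e-06), and 4.16 without replicate 1 of the OCPs, in which *Matn4* was 6.27 times lower than in the mean of the other two. CBs had 96.3 ± 20.3 CPM and OCPs 3.84 ± 2.67 CPM (SD, n = 3 each), 3.99% of the CB level. *Matn4* and *Cnmd* were thus first called in the same population, where their mean levels were 3.99% and 20.02% of those in CBs. Of the exon bases of *Matn4*, 2.88% overlap exons of *Rbpjl* on the opposite strand, which had 53 to 75 reads in CBs and at most 4 elsewhere. The sources used here do not give the use of strand, so reads from these bases cannot be assigned to either gene.

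*Matn1*, the matrilin typical of mature cartilage, was first called above S9-JAG1+ LMPs in CBs. It had 0, 0 and 3 reads in S9-JAG1+ LMPs, no read in S9-Pαhi LMPs, and 1, 4 and 4 reads in OCPs. In CBs it had 63, 102 and 102 reads, above all other libraries. The log2 fold change from OCPs to CBs was 4.65 (standard error 0.61, adjusted p = 0.000213), and the ratio of CBs to S9-JAG1+ LMPs was 76.4, with an exact 95% counting interval from 25.9 to 373 (adjusted p = 1.61e-05). *Matn1* was also called higher in OCPs than in S9-Pαhi LMPs (adjusted p = 0.0899), but on 9 reads in all against 0, and the call was lost when any one of 7 of the 14 libraries was left out. OCPs held 3.90% of the CB level, close to the 3.99% of *Matn4*. The later call of *Matn1* comes with far fewer reads. A later appearance than that of *Matn4* therefore cannot be read from it.

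*Acan* had few reads in LMPs and OCPs and rose in CBs only. It had 5, 7 and 8 reads in S9-JAG1+ LMPs, 4, 12 and 15 reads in S9-Pαhi LMPs and 1, 3 and 5 reads in OCPs, where it was lowest. In CBs it had 102, 301 and 380 reads. The S9-JAG1+, S9-Pαhi and OCP libraries overlapped, and the decrease from S9-Pαhi LMPs to OCPs was not called (log2 fold change -1.80, standard error 0.88, adjusted p = 0.192), although the DESeq2 Wald test called it, as did edgeR without replicate 1 of the CBs (-1.81, adjusted p = 0.0915). From OCPs to CBs *Acan* rose by 6.22 on the log2 scale (standard error 0.68, adjusted p = 2.23e-05), the largest step from OCPs to CBs among these genes. OCPs held 1.33% of the CB level of *Acan*, the smallest mean share of the 6 rising genes. Both this share and the size of the step rest on 9 reads in all in OCPs, so their ranks are not firm. With 9.55 ± 5.78 CPM (SD, n = 3), the CB libraries differed among themselves: replicate 1 was 3.68 times below the mean of the other two.

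*Comp*, which bridges collagen fibrils and proteoglycans, was at few reads throughout. It had 2, 3 and 4 reads in S9-JAG1+ LMPs, 1, 2 and 2 reads in S9-Pαhi LMPs, 0, 3 and 6 reads in OCPs and 18, 24 and 27 reads in CBs. Only CBs lay above all other libraries. The log2 fold change was 2.68 against OCPs (standard error 0.71, adjusted p = 0.0138) and 2.68 against S9-JAG1+ LMPs (standard error 0.71, adjusted p = 0.005). OCPs and S9-JAG1+ LMPs differed by 0.005 on the log2 scale (standard error 1.08), and a difference between them was not detectable at this depth.

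**Figure D2:**
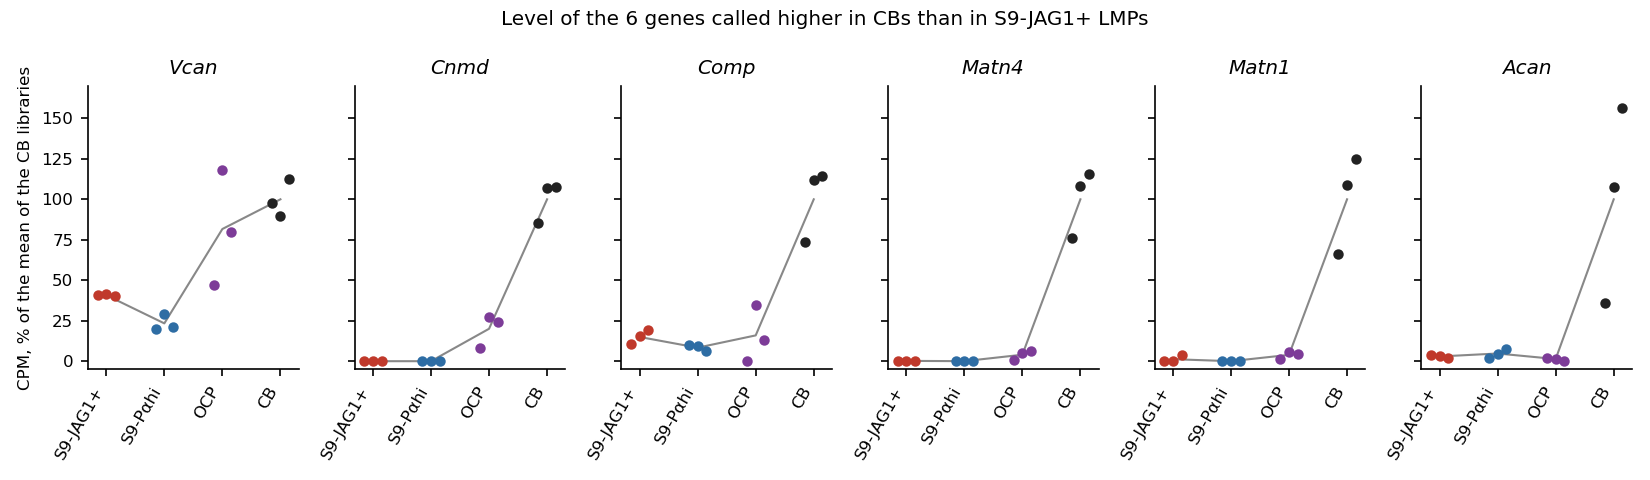
CPM of the 6 rising genes in percent of the mean of the CB libraries (vertical axis, shared), from S9-JAG1+ LMPs to CBs. Points are libraries and lines join population means. *Vcan* has 40.8% of its CB level in S9-JAG1+ LMPs and 81.7% in OCPs, *Cnmd* has 20.02% in OCPs, and *Matn4*, *Matn1* and *Acan* stay below 5% on average until CBs.

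Between S9-JAG1+ and S9-Pαhi LMPs, 0 of the 10 genes were called in edgeR's quasi-likelihood test, where 7% of all tested genes were called in either direction. Under the fold limit, *Matn2* was higher (log2 fold change 0.97, standard error 0.30, adjusted p = 0.0331) and *Hapln3* was lower (-0.89, standard error 0.24, adjusted p = 0.0152) in S9-Pαhi LMPs, beside *Vcan*. The DESeq2 Wald test called 1 gene, *Matn4*, lower. From S9-Pαhi LMPs to OCPs 4 genes were called higher (*Cnmd*, *Matn4*, *Vcan* and *Matn1*) and none lower, with 3.48% of all tested genes called higher. From OCPs to CBs 5 genes were called higher (*Acan*, *Matn1*, *Matn4*, *Comp* and *Cnmd*), with 6.6% of all tested genes called higher. OCPs against S9-JAG1+ LMPs gave 2 genes called higher, *Cnmd* and *Matn4*, with 9.03% of all tested genes called higher. In the same comparison *Hapln3* (-1.10, standard error 0.24, adjusted p = 0.00232) and *Hapln1* (-0.97, standard error 0.24, adjusted p = 0.00565) were under the fold limit, and *Hapln3* was called without replicate 1 of the OCPs (-1.33). *Matn2* (0.48, adjusted p = 0.230 from edgeR) and *Matn3* (0.31, adjusted p = 0.266 from edgeR) did not pass the test.

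The steps themselves differed for several genes. The change from S9-Pαhi LMPs to OCPs exceeded that from S9-JAG1+ to S9-Pαhi LMPs for 2 of the 10 genes, *Vcan* and *Matn4*, with 2.35% of all tested genes called in this direction. For *Vcan* the difference was 2.61 on the log2 scale (standard error 0.43, adjusted p = 0.00158). For *Cnmd*, without reads in both LMP populations, the edgeR fit gave no usable standard error for this difference, and the DESeq2 Wald test called it. For *Matn4* (adjusted p = 0.0693) its size depends on libraries without reads and is not given, and the call was lost when any one of 5 of the 14 libraries was left out. The change from OCPs to CBs exceeded that from S9-Pαhi LMPs to OCPs for *Acan* (8.01, standard error 1.41, adjusted p = 0.00268), with 3.58% of all tested genes called in this direction. It was smaller for *Vcan* (-1.51, standard error 0.40, adjusted p = 0.0314) and *Cnmd* (adjusted p = 0.0195), with 2.23% of all tested genes called in this direction. The value of *Vcan* was -0.81 and not called without replicate 2 of the OCPs. On the log2 scale, *Vcan* and *Cnmd* thus had their larger step between S9-Pαhi LMPs and OCPs, and *Acan* had it between OCPs and CBs. For *Vcan* the call of this difference rests on replicate 2 of the OCPs. For *Cnmd* the step from S9-Pαhi LMPs to OCPs is known as a bound only, at least 30.1-fold, against 4.99-fold from OCPs to CBs. In CPM the larger increase of *Cnmd* was the later one, from 3.86 in OCPs to 19.3 in CBs.

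Among the matrilins, 2 genes did not follow this course. *Matn3* had 4.53 ± 0.477 CPM in S9-JAG1+ LMPs, 6.37 ± 0.914 in S9-Pαhi LMPs, 5.63 ± 1.03 in OCPs and 4.44 ± 0.685 in CBs (SD, n = 3 each). It was called in none of these comparisons, and CBs differed from S9-JAG1+ LMPs by -0.03 (standard error 0.21, adjusted p = 0.911). *Matn2*, the matrilin with the widest distribution across tissues, had 36, 47 and 56 reads in S9-JAG1+ LMPs, 64, 84 and 121 in S9-Pαhi LMPs, 39, 73 and 81 in OCPs and 93, 115 and 126 in CBs. CBs lay above S9-JAG1+ LMPs without overlap, by 1.04 on the log2 scale (standard error 0.30, adjusted p = 0.00809), which is under the limit for a call. Among exon bases of *Matn2*, 1.12% overlap the antisense gene 9430069I07Rik, which had at most 3 reads in any library.

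The shares of the matrilin genes were compared next, as a description without a test. Per length, in CPM per kb of the deposited gene lengths, *Matn3* made up 66.2%, 71.1% and 73.4% of the sum of the 4 matrilin genes in S9-JAG1+ LMPs, and *Matn4* 0.739%, 2.13% and 7.36%. In S9-Pαhi LMPs the shares of *Matn3* were 61.1%, 66.4% and 72.1%, which overlap with S9-JAG1+ LMPs, and *Matn4* was at most 0.434%. In OCPs *Matn4* made up 13.1%, 34.7% and 48.8%, with the lowest share in replicate 1. In CBs it was 89.1%, 90.1% and 90.3% of the sum, and *Matn3* was 3.09%, 3.602% and 4.09%. *Matn1* accounted for 3.79% ± 0.430 in CBs (SD, n = 3). The sum itself was 2.14 ± 0.135 CPM per kb in S9-JAG1+ LMPs and 41.6 ± 8.57 CPM per kb in CBs. With the longer GENCODE exon lengths, an alternative chosen after seeing the data, the share of *Matn4* in CBs was 83.3% and that of *Matn3* in S9-JAG1+ LMPs 80.6%, and in CBs the mean shares of *Matn3* and *Matn1* were 6.70% and 7.07%. Depth behind these shares is small before OCPs, where all matrilin genes but *Matn2* and *Matn3* had at most 9 reads.

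**Figure D3:**
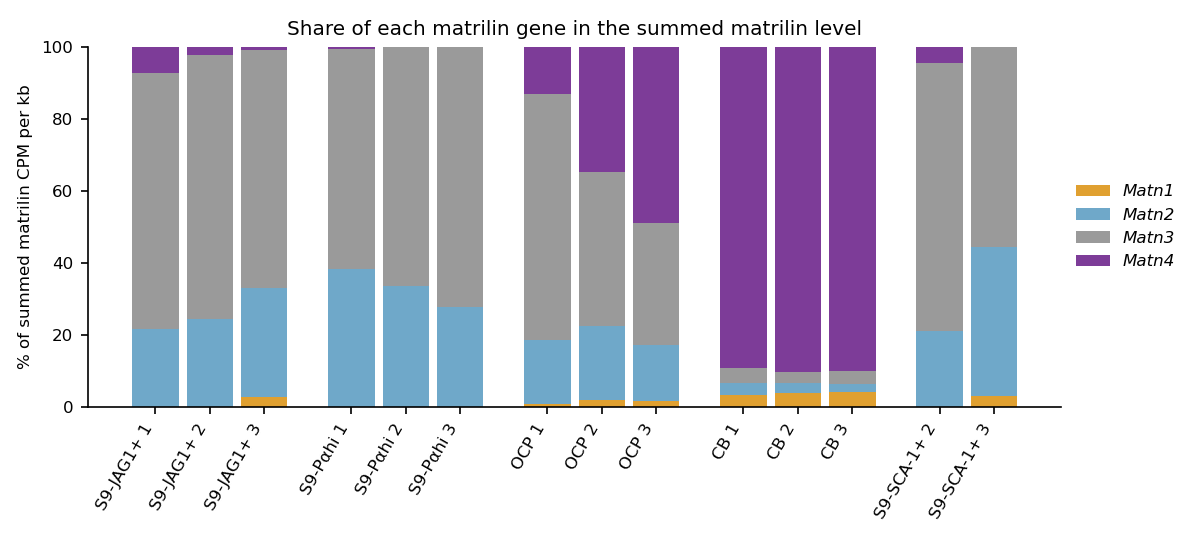
Share of each matrilin gene in the summed matrilin level (vertical axis, percent of CPM per kb of deposited length) for each of the 14 libraries. *Matn3* holds the largest share in all libraries of both LMP populations, and *Matn4* holds 89.1% to 90.3% in the 3 CB libraries.

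Per length, the order of the 10 genes differed between the ends of the series. In S9-JAG1+ LMPs *Vcan* had 46.3 ± 0.525 CPM per kb, followed by *Hapln3* with 1.87 ± 0.101, *Matn3* with 1.504 ± 0.158 and *Hapln1* with 1.43 ± 0.455 (SD, n = 3 each). The range of *Hapln1* overlapped with those of *Hapln3* and *Matn3*. In CBs *Vcan* had 114 ± 13.2 CPM per kb, *Matn4* 37.4 ± 7.91 and *Cnmd* 13.2 ± 1.65, without overlap between these 3. *Matn1* with 1.601 ± 0.487, *Matn3* with 1.47 ± 0.227, *Acan* with 1.30 ± 0.786 and *Matn2* with 1.12 ± 0.0956 CPM per kb came next and lay within the spread of each other. *Hapln3* had 0.807 ± 0.0898, *Hapln1* 0.522 ± 0.114 and *Comp* 0.340 ± 0.0781 CPM per kb. *Acan* was thus present at about the level of *Matn1* in CBs, and far below *Vcan*. With GENCODE exon lengths, *Hapln3* had 0.761 ± 0.0411 CPM per kb in S9-JAG1+ LMPs, below *Matn3* with 1.504 and *Hapln1* with 1.23 ± 0.390, and in CBs *Matn4* had 18.6 ± 3.93, *Matn2* 0.630 ± 0.0537 and *Hapln3* 0.329 ± 0.0366 CPM per kb. The share of *Vcan* in the summed level of the 10 genes was 88.9% to 89.8% in S9-JAG1+ LMPs and 62.1% to 71.1% in CBs.

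The link protein genes were called in the direction opposite to the lecticans in CBs. *Hapln1* had 128, 165 and 229 reads in S9-JAG1+ LMPs, 131, 131 and 163 in S9-Pαhi LMPs, 74, 89 and 103 in OCPs and 67, 69 and 84 in CBs. It was lower in CBs than in S9-JAG1+ LMPs in all libraries (log2 fold change -1.46, standard error 0.25, adjusted p = 0.000173), and -1.18 and not called without replicate 1 of the S9-JAG1+ LMPs. Neighbouring populations in this order did not differ beyond the limits for a call. *Hapln3* had 59, 64 and 71 reads in S9-JAG1+ LMPs, 27, 38 and 38 in S9-Pαhi LMPs, 20, 32 and 40 in OCPs and 31, 33 and 33 in CBs. All libraries of the later 3 populations lay below those of S9-JAG1+ LMPs, and OCPs overlapped with both S9-Pαhi LMPs and CBs. CBs were lower than S9-JAG1+ LMPs by 1.21 on the log2 scale (standard error 0.24, adjusted p = 0.000598), close to the fold limit, and the call was lost with unscaled library totals (-1.09) and without replicate 1 of the CBs (-1.16).

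Both link protein genes lie beside a lectican gene. On GRCm38 (mm10), *Acan* (chr7:79053226-79115099, plus strand) and *Hapln3* (chr7:79117027-79133173, minus strand) meet tail to tail with 1927 bases between them, and *Hapln1* (chr13:89540529-89611832, plus strand) and *Vcan* (chr13:89655309-89743027, minus strand) with 43476 bases between them. In each pair no RefSeq gene lies in between. Within both pairs the lectican was called higher and the link protein gene lower in CBs than in S9-JAG1+ LMPs. The ratio of *Vcan* to *Hapln1*, in CPM per kb, was 23.9, 35.4 and 44.1 in S9-JAG1+ LMPs, 18.7, 21.5 and 27.0 in S9-Pαhi LMPs, 64.8, 160.2 and 171 in OCPs and 196, 218 and 249.5 in CBs. Both S9+ populations lay above both LMP populations. In S9-SCA-1+ cells, with 8 and 9 reads of *Hapln1*, it was 437 and 450.04. The ratio of *Acan* to *Hapln3* was between 0.00609 and 0.108 in all libraries of LMPs and OCPs, and 0.641, 1.78 and 2.24 in CBs. It depends on the length taken for *Hapln3*, 1433 bases as deposited and 3513 bases of GENCODE exons. With the latter it was 1.55, 4.29 and 5.42 in CBs and at most 0.261 in LMPs and OCPs. The lectican genes known from brain also lie beside link protein genes: *Ncan* and *Hapln4* are 2222 bases apart on chromosome 8, and *Bcan* and *Hapln2* are 18382 bases apart on chromosome 3. *Ncan* rose from 1.81 ± 0.259 CPM in S9-JAG1+ LMPs to 6.13 ± 0.203 CPM in CBs (log2 fold change 1.76, standard error 0.18, adjusted p = 1.72e-06), and *Bcan*, *Hapln2* and *Hapln4* had at most 12 reads in any library and were not tested.

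**Figure D4:**
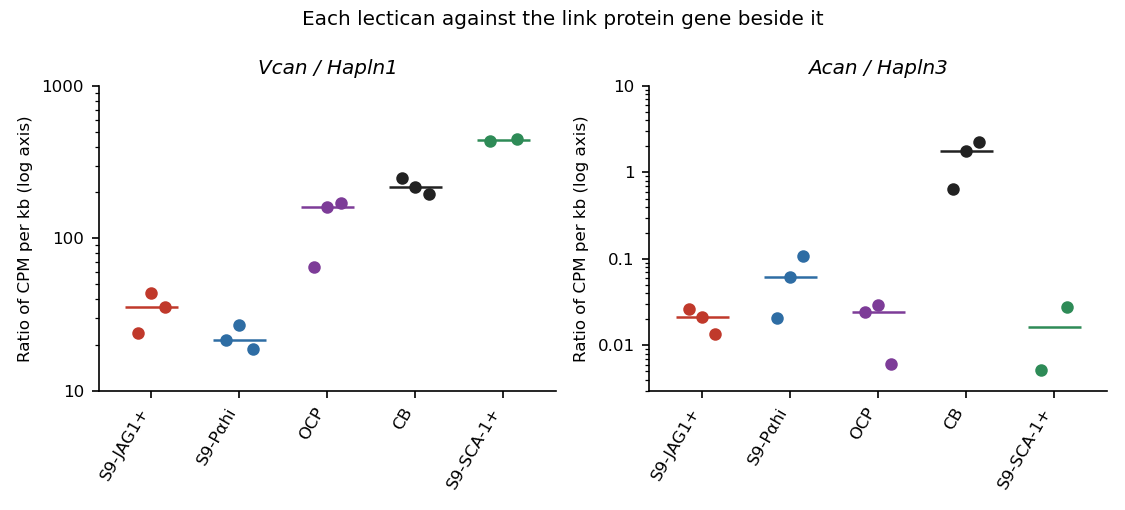
Ratio of each lectican gene to the link protein gene beside it, in CPM per kb on a log axis, by population. Points are libraries and horizontal lines are medians. *Vcan* over *Hapln1* lies at 64.8 and above in all S9+ libraries and at 44.1 and below in the LMP libraries, and *Acan* over *Hapln3* exceeds 0.6 in CBs only.

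The promoters of the rising genes are of unlike composition. RefSeq start sites on GRCm38.p6 were matched for 8 of the 10 genes, with 2 start sites for *Matn4*, and for *Matn2* and *Comp* none was matched. The windows of *Hapln3* (chr7:79131019-79131268) and *Vcan* (chr13:89742513-89742762), both minus strand, lie inside the gene spans given above. That of the second start of *Matn4* (chr2:164404819-164405068, minus strand) also lies inside its gene. These windows are thus upstream of a start within the gene. The windows of *Hapln1* and *Cnmd* overlap the 5′ end of their gene in part. The 250 bases upstream of the start are shown 5′ to 3′ on the strand of the gene. They are given for the pair of genes first called in OCPs and for *Matn1* and *Acan*. *Matn1* and *Acan* rose from at most 5 reads in each OCP library to at least 63 in each CB library. Capitals mark CG dinucleotides. *Cnmd* is shown for chr14:79662184-79662433 (minus strand), *Matn4* for chr2:164405161-164405410 (minus strand), *Matn1* for chr4:130944135-130944384 (plus strand) and *Acan* for chr7:79052976-79053225 (plus strand).
Cnmd: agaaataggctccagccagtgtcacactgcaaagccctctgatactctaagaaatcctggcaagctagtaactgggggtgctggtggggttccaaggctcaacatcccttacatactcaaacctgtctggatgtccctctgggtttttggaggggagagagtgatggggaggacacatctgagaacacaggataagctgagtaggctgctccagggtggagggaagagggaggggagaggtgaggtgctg
Matn4: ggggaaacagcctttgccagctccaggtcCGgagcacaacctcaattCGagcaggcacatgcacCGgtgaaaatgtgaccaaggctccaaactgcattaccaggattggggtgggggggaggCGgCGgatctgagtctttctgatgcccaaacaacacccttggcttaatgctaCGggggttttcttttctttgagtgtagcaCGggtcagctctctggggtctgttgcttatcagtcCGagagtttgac
Matn1: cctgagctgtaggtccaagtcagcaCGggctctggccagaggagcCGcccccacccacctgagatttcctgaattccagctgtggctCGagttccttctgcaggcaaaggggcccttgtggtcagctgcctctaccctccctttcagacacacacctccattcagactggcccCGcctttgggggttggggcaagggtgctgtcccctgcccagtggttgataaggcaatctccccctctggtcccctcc
Acan: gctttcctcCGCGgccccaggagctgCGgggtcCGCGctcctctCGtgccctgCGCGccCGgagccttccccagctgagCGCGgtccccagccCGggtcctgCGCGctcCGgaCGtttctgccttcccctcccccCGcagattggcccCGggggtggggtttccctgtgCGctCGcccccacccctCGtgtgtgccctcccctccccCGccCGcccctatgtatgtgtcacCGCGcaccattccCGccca
The window of *Cnmd* holds 0 CG dinucleotides, a count that 7.87% of all 32851 windows do not exceed. That of *Matn1* holds 4, that of *Matn4* 8 (14 at its second start, with a GC content of 62.8%), and that of *Acan* 26, a count that 91.4% of all windows do not exceed. The median of all windows is 6. Among the remaining genes, *Hapln1* had 2, *Hapln3* 8, *Vcan* 10 and *Matn3* 14. Their GC content was 54.0% for *Cnmd*, 54.4% for *Matn4* and *Hapln1*, 62.0% for *Matn1* and 74.4% for *Acan*, against a median of 52.4%.

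Short motifs were searched on both strands of the same 250 bases. The letters AACAAT and ACAAAG, cores bound by SOX proteins, are present in 9.42% and 16.5% of all windows. AACAAT was found in 1 of 9 windows of these genes, that of *Hapln3* inside its gene span, and ACAAAG in none. The TATA motif TATAAA, in 12.4% of all windows, was also found at *Hapln3* only, where it overlaps with AACAAT. The letters GGGCGG, bound by SP1, are in 32.7% of all windows and in 5 of 9 windows of these genes: *Acan* and *Matn3* with 3 matches each, some of which overlap, *Vcan* with 2, and *Matn1* and the second start of *Matn4* with 1 each. These matches describe the letters in this window and are not binding sites.

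S9-SCA-1+ cells were set beside S9-Pαhi LMPs as another population sorted without EGFP. They expressed 5 myoblast markers at a summed level of 1490 to 1494 CPM, against at most 6.92 CPM in both LMP populations, and the summed level of 7 red blood cell genes was 111 and 3278 CPM in the 2 libraries, and their part in the differences was not tested. In this comparison 3 of the 10 genes were called lower, where 5.58% of all tested genes were called lower. *Hapln1* had 8 and 9 reads in S9-SCA-1+ cells, less than any other library (log2 fold change -4.30, standard error 0.38, adjusted p = 1.16e-06). *Matn2* had 32 and 49 reads (-1.39, standard error 0.35, adjusted p = 0.00937) and *Matn3* 56 and 97 reads (-1.24, standard error 0.25, adjusted p = 0.00186). The call of *Matn2* was lost without replicate 1 of the S9-Pαhi LMPs (-1.15) or replicate 2 of the S9-SCA-1+ cells (-1.11), and that of *Matn3* without replicate 1 (-1.20) or 3 (-1.16) of the S9-Pαhi LMPs or replicate 3 of the S9-SCA-1+ cells (-0.91). *Vcan* was at 386 ± 19.0 CPM (SD, n = 2), within the range of S9-Pαhi LMPs. *Hapln3* had 49 and 74 reads, with a log2 fold change of 0.59 and an adjusted p of 0.126 from edgeR, and was not called. *Cnmd* had no read, and *Matn1*, *Matn4*, *Acan* and *Comp* had at most 7.

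Other cartilage genes place this order in context. Of 11 cartilage collagens and chondrogenic regulators, 10 were tested. Of these, 7 were called higher in OCPs than in S9-Pαhi LMPs, 4 in CBs than in OCPs and all 10 in CBs than in S9-JAG1+ LMPs. The shares of all tested genes called higher in these comparisons were 3.48%, 6.6% and 15.2%. *Col2a1*, the main fibril collagen of cartilage, was called higher at the first step, at which *Vcan* was lower (1.79, standard error 0.24, adjusted p = 0.000101). Like *Vcan*, it was called at the second step (3.46, standard error 0.25, adjusted p = 1.22e-06) and not at the third (0.64, standard error 0.23, adjusted p = 0.0534). Of 14 other secreted cartilage products, 11 were tested. Of these, 3 were called higher in OCPs than in S9-Pαhi LMPs and 7 in CBs than in OCPs, where 3.48% and 6.6% of all tested genes were. The small proteoglycan gene *Fmod*, with 6 to 16 reads in OCPs and 180 to 286 in CBs, was, like *Acan*, first called in CBs (4.19 from OCPs to CBs, standard error 0.40, adjusted p = 7.31e-06). The median log2 fold changes of the collagens and regulators were 2.27 at the second step and 0.86 at the third, and those of the secreted products 0.33 and 2.14, with medians of all tested genes of 0.02 and -0.02.

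Of 9 family relatives, 5 were tested. The thrombospondin gene *Thbs1*, a relative of *Comp*, rose from 13.7 ± 4.03 CPM in S9-Pαhi LMPs to 69.2 ± 27.7 in OCPs and 176 ± 27.8 in CBs (SD, n = 3 each), and was called at both steps (2.33 with a standard error of 0.28 and an adjusted p of 0.000104, and 1.35 with a standard error of 0.27 and an adjusted p of 0.00234). No other relative was called at these 2 steps. In CBs against S9-JAG1+ LMPs, *Ncan*, *Thbs1*, *Thbs2* and *Thbs3* were higher and *Thbs4* was lower, where 15.2% and 4.17% of all tested genes were.

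Genes that make, bind or cleave hyaluronan and lecticans formed a further list, with 13 of 14 tested. From S9-Pαhi LMPs to OCPs 0 of the 13 were called in edgeR's quasi-likelihood test, with 3.48% of all tested genes called higher, and from OCPs to CBs 3 of the 13 were called higher, with 6.6% of all tested genes, namely the lectican-cleaving protease *Adamts5*, the hyaluronan receptor *Cd44* and the hyaluronan synthase *Has3*. The synthase *Has2* was highest in S9-JAG1+ LMPs, with 81.5 ± 9.92 CPM, and had 19.9 ± 0.981 CPM in S9-Pαhi LMPs (log2 fold change -2.04, standard error 0.11, adjusted p = 3.52e-08). It had 24.8 ± 2.93 CPM in OCPs and 37.4 ± 3.22 CPM in CBs (SD, n = 3 each). *Has2*, *Hapln1* and *Hapln3*, a hyaluronan synthase and both link proteins, thus each had their highest mean CPM in S9-JAG1+ LMPs. For *Hapln1* this rests on replicate 1, without which S9-Pαhi and S9-JAG1+ LMPs differed by 0.0083 on the log2 scale.

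Levels were also compared over the 14 libraries, which are not independent points, since 2 or 3 of them come from each population. Pearson's r of log2 CPM was 0.963 between *Matn4* and *Cnmd*, 0.919 between *Matn4* and *Matn1* and 0.909 between *Vcan* and *Cnmd*, but 0.609 between *Acan* and *Cnmd*. *Hapln1* correlated best with *Matn3* (0.763), and *Hapln3* most negatively with *Matn2* (-0.742). Among 9923 tested genes with an average of at least 3 log2 CPM, those most like *Cnmd* were *Foxc1* (0.988), *Thbs1* (0.980) and *Iqsec1* (0.980). The closest to *Matn4* were *Wwp2*, *Fat4* and *Col11a1* (0.977 to 0.972), to *Vcan* *Dst*, *Kank1* and *Arhgef1* (0.960 to 0.938), and to *Matn1* *Nek6*, *Grina* and *Nedd4l* (0.972 to 0.968). *Acan* was most like *Myo1c* (0.937), *Pgap4* and *Smarca2*, and *Comp* most like *Psd3* (0.924), *Fes* and *Cux1*. Among the genes that did not rise, *Hapln1* was most like *Gm8615* (0.966), *Dixdc1* and *Lhx9*, *Hapln3* most like *H2aj* (0.946), *Ly75* and *Dmrta2*, *Matn2* most like *Gorab* (0.910), *Mtmr10* and *Ccdc102a*, and *Matn3* most like *Hps1* (0.942), *Cog1* and *Hoxd9*. These values describe 14 libraries from 5 populations and carry no test.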

How the data were processed

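Per the labels and the study's methods, poly(A)+ RNA of sorted cells was sequenced as single reads, which the authors aligned to mm10 with STAR, keeping 1 position per read. They deposited counts, whole numbers of reads starting in RefSeq exons, without normalization, with a gene length for each Entrez identifier. Use of strand in counting is not given in the sources used here. Symbols came from RefSeq tables: 24374 of 24454 identifiers matched, and the other 80 held 0.358% of counts.

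All 14 libraries were fitted together with edgeR 4.0.16 in R 4.3.3 (filterByExpr by population, TMM scaling, a mean per population, quasi-likelihood F test, Benjamini-Hochberg adjustment over 15125 genes). Standard errors are the log2 fold change divided by the square root of F. The limits for a call are the study's, with its P taken as adjusted. CPM use the scaled totals, log2 CPM a prior count of 2. Where a population had no library above 3 reads, a bound or an exact conditional interval replaces the fold change. Alternatives were DESeq2 1.42.0 (Wald test, size factors), library totals, no filter, other limits, a replicate block, no S9-SCA-1+ libraries, and each library left out. The procedure was tested on simulated data, with the same spread for all genes and changes set only in genes with many reads. Calls on few reads were thus not covered by it.

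Samples were grouped by the sorted phenotype in their labels. Replicate pairs differed by more than sampling noise. All 10 genes were tested in every comparison and each is described with its values, order of appearance is the first population called above S9-JAG1+ LMPs, and the 3 most similar genes were taken by Pearson's r. The genes and lists were chosen with earlier results of these data known.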

Additional observations from a re-analysis of the deposited data

How the results depend on the processing

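The numbers of called members kept within 1.5 times of their values under most alternatives, and those of all called genes under all that were run. The exceptions for members were the following. Between S9-JAG1+ and S9-Pαhi LMPs, 0 members were called, and 1 by the DESeq2 Wald test. For OCPs against S9-JAG1+ LMPs, 2 became 4 with an absolute log2 fold change limit of 1, and 2 to 4 with single libraries left out (4 without replicate 1 of the OCPs). For S9-SCA-1+ cells against S9-Pαhi LMPs, 3 became 1 to 3 with single libraries left out (1 without replicate 1 of the S9-Pαhi LMPs). For the second against the first step, 2 became 4 by the DESeq2 Wald test, 1 with the adjusted p limited to 0.05, and 1 to 3 with single libraries left out (1 without any of the 3 S9-Pαhi libraries or replicates 1 or 2 of the S9-JAG1+ LMPs). Near-zero log2 fold changes turned sign. That of *Comp* between OCPs and S9-JAG1+ LMPs became -0.0042 with DESeq2 size factors, -0.042 with the replicate block, -0.0084 without S9-SCA-1+ libraries and -1.07 to 0.58 with single libraries left out, with -0.19, -0.013, -0.012, -0.0071 and -8.84e-05 in between. That of *Matn3* between CBs and S9-JAG1+ LMPs became 0.092 with library totals, and -0.20 to 0.029 with single libraries left out (0.029 and 0.015 without CB replicate 1 or S9-JAG1+ replicate 2). Left-out libraries also gave -0.44 to 0.0083 for *Hapln1* between S9-Pαhi and S9-JAG1+ LMPs, -0.30 to 0.12 for *Hapln3* between CBs and OCPs, and -0.12 to 0.17 for *Vcan* between S9-SCA-1+ and S9-Pαhi cells. The cause was not tested. Library totals moved the median of all genes between CBs and S9-JAG1+ LMPs from 0.05 to 0.18. Same-numbered replicates showed no more shared deviation than other pairs, so they were not treated as pairs. Their r ran from -0.18 to 0.31 (26 pairs, 4 above 0.1, median -0.0048), and that of other pairs from -0.31 to 0.41 (median -0.0030). Whether libraries with unlike numbers came from common pools cannot be told from this. With the replicate block, the numbers of called members were the same in all 8 comparisons (8 in CBs against S9-JAG1+ LMPs). *Comp* and *Matn1*, *Acan* before CBs and *Matn4* before OCPs rest on few reads, which limits the precision of their levels.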
